A study of Mus musculus with 16 samples.

Results

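Cells of the control embryo proper that carried VE-cadherin and CD45 on their surface (VE-Cadherin+/CD45+, gate P4) were set against cells of the control embryo proper that carried VE-cadherin without CD45 (VE-Cadherin+/CD45-, gate P3). The 4 arrays compared, 2 for each gate, were chosen by their sample titles and are 4 of the 16 arrays of the series. All cells came from mouse embryos at stage E11.5 of a mixed strain background described as B6/CBA and others. The embryos compared carried the genotype label control, and cells were sorted by flow cytometry with no treatment afterwards. The remaining arrays, 2 per group, held the same gates from control yolk sac and from embryos and yolk sacs labelled Tie-2-Etv2. In that genotype an Etv2 transgene is switched on by a Tie-2 Cre transgene, Etv2 being an ETS factor that starts blood and vessel development and Tie-2 being active in endothelium and in part of the blood lineage. The titles of the CD45-negative Tie-2-Etv2 embryo samples name Tie-2 only. The labels do not say how many embryos were pooled per sample or whether replicates came from separate litters, so p-values here measure only how far these samples spread, and that spread may be technical.

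VE-cadherin (Cdh5) is the adhesion molecule of endothelial junctions, and CD45 (Ptprc) is a tyrosine phosphatase on the surface of nearly all white blood cells. Endothelium lines vessels and the heart, and a hemogenic subset in the embryo gives rise to blood cells through a stage at which VE-cadherin and the first leukocyte proteins can be found together. The first tissue macrophages of the mouse embryo arise from yolk sac progenitors, spread through the embryo and become, among others, the microglia of the brain.

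RNA was measured on single-colour 60-mer arrays. A level is the log2 of a probe's processed intensity relative to the 75th percentile over its array, a difference is the mean CD45-positive level minus the mean CD45-negative level, and the standard error of the fit follows a difference after ± (n = 2 arrays per gate throughout). Where 2 values stand against 2 others, the first are the CD45-negative and the second the CD45-positive arrays, replicate 1 before replicate 2. No intensity level is compared between different genes, since probes bind with different strength. Between 53.5% and 61.0% of spots were well above background on the 4 arrays, and no spot was saturated. The replicate arrays correlated at 0.979 in CD45-negative and 0.976 in CD45-positive cells over all genes tested, each by its brightest probe. On the slide, all CD45-negative embryo arrays lay in 1 column and all CD45-positive embryo arrays in the other, so the effect of the gate and that of the slide column cannot be told apart.

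Of 24578 genes tested, limma with Benjamini-Hochberg adjustment over all of them called 4904 higher (20.0%) and 4085 lower (16.6%) in CD45-positive cells at an adjusted p under 0.05. A call is used in this sense throughout, and these percentages are the background for every count of genes called in the gate comparison below. The median difference over all genes was 0.08, and the 5th and 95th percentiles were -2.80 and 2.64. A difference above 5 was called for 399 genes, and one below -5 for 282 genes. Between the gates the arrays did not overlap, with CD45-positive above, for 7871 genes (32.0%), and with CD45-positive below for 6641 (27.0%). A gene counted as well above background on an array if any of its probes that passed the detection filter was, while its level is that of the brightest probe. Both CD45-positive arrays and neither CD45-negative array stood well above background for 497 genes (2.02%), and the reverse held for 1037 (4.22%). For such genes a fold is given as a lower bound ("at least"), the bright gate's mean against the higher of the dim gate's own signal and the lowest signal well above background. Of the genes called, 28 higher and 16 lower were not well above background on any of the 4 arrays. The split between directions depended on the scaling: with the percentile taken over probes detected on all 16 arrays, 4050 genes were called higher and 5129 lower, and with quantile scaling 4552 and 4724. With the 4 arrays fitted alone, 2619 and 2646 were called.

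**Figure D1:**
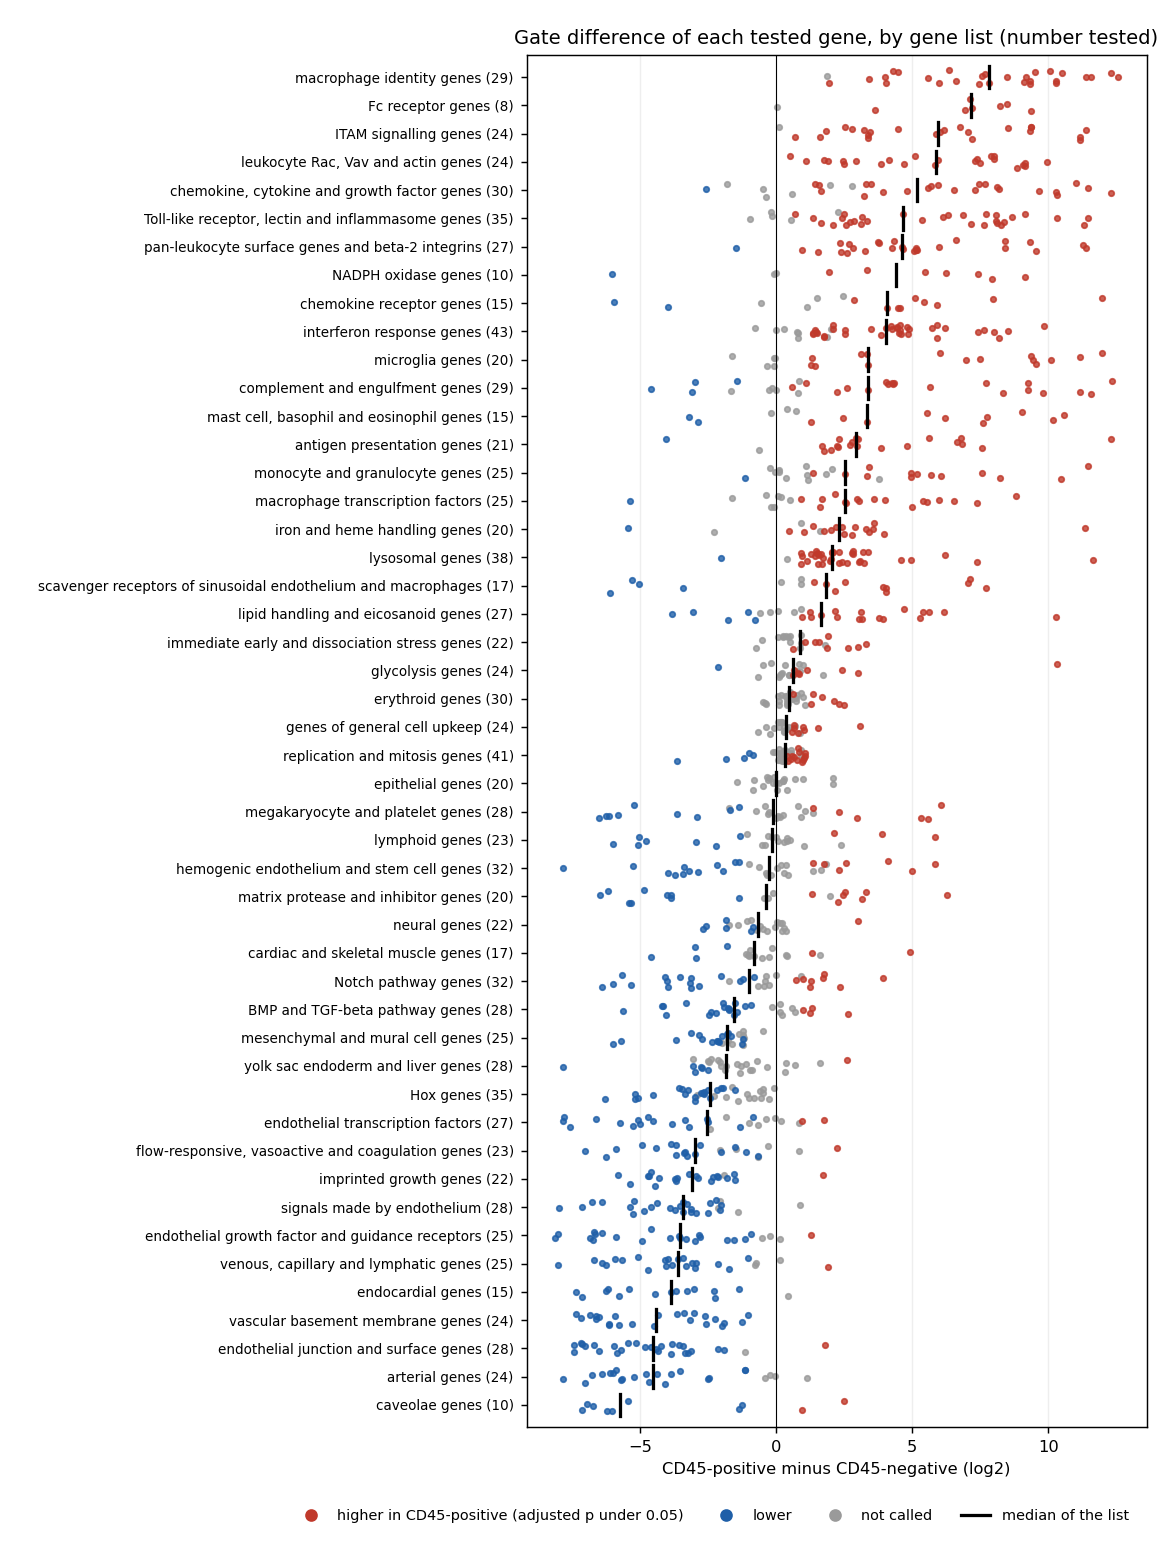
Difference between CD45-positive and CD45-negative control embryo cells (horizontal axis, log2) for the members of each gene list (vertical axis); each point is a gene, coloured by its call, and the bar is the median of the list. Macrophage identity genes (median 7.82) lie at the high end and caveolae genes (median -5.73) at the low end, and epithelial genes (median 0.01) lie at zero.

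The antigen used for the sort was seen in the RNA. Ptprc lay at -4.87 and -5.55 on the CD45-negative arrays, where it was not well above background, and at 3.56 and 2.88 on the CD45-positive arrays, at least 287-fold higher (limma adjusted p = 1.32e-08). Cdh5 lay at 5.88 and 5.69 on the CD45-negative and 0.33 and -0.66 on the CD45-positive arrays, a difference of -5.95 ± 0.30 (limma adjusted p = 1.82e-07), although VE-cadherin was a criterion of both gates. It was still well above background on both CD45-positive arrays. The fraction of CD45-positive cells that held Cdh5 RNA cannot be read from bulk samples, where fewer cells of a type and less RNA per cell cannot be told apart.

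The other markers of each gate followed the sort. Csf1r, the receptor for the macrophage growth factor CSF1, lay at 1.97 and 1.19 in CD45-negative and 9.10 and 8.99 in CD45-positive cells. Adgre1, which codes for the macrophage antigen F4/80, lay at -4.58 and -4.54 against 5.59 and 5.39. Cx3cr1, the fractalkine receptor of monocytes, macrophages and microglia, lay at -4.89 and -3.08 against 7.72 and 8.25. For each of these both CD45-positive arrays lay above both CD45-negative arrays, and the smallest difference of these genes was that of Csf1r at 7.47 ± 0.26 (limma adjusted p = 1.30e-08). Pecam1, the endothelial adhesion molecule CD31 that many blood cells also carry, lay at 3.65 and 3.35 in CD45-negative and -0.58 and -1.08 in CD45-positive cells. Tek, the angiopoietin receptor Tie-2, went from 3.30 and 3.67 to -3.21 and -3.10, and Cldn5, a tight junction claudin, from 6.89 and 6.85 to -0.88 and -0.18. Both Tek and Cldn5 were higher in CD45-negative cells, by 99.6-fold and 169-fold.

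**Figure D2:**
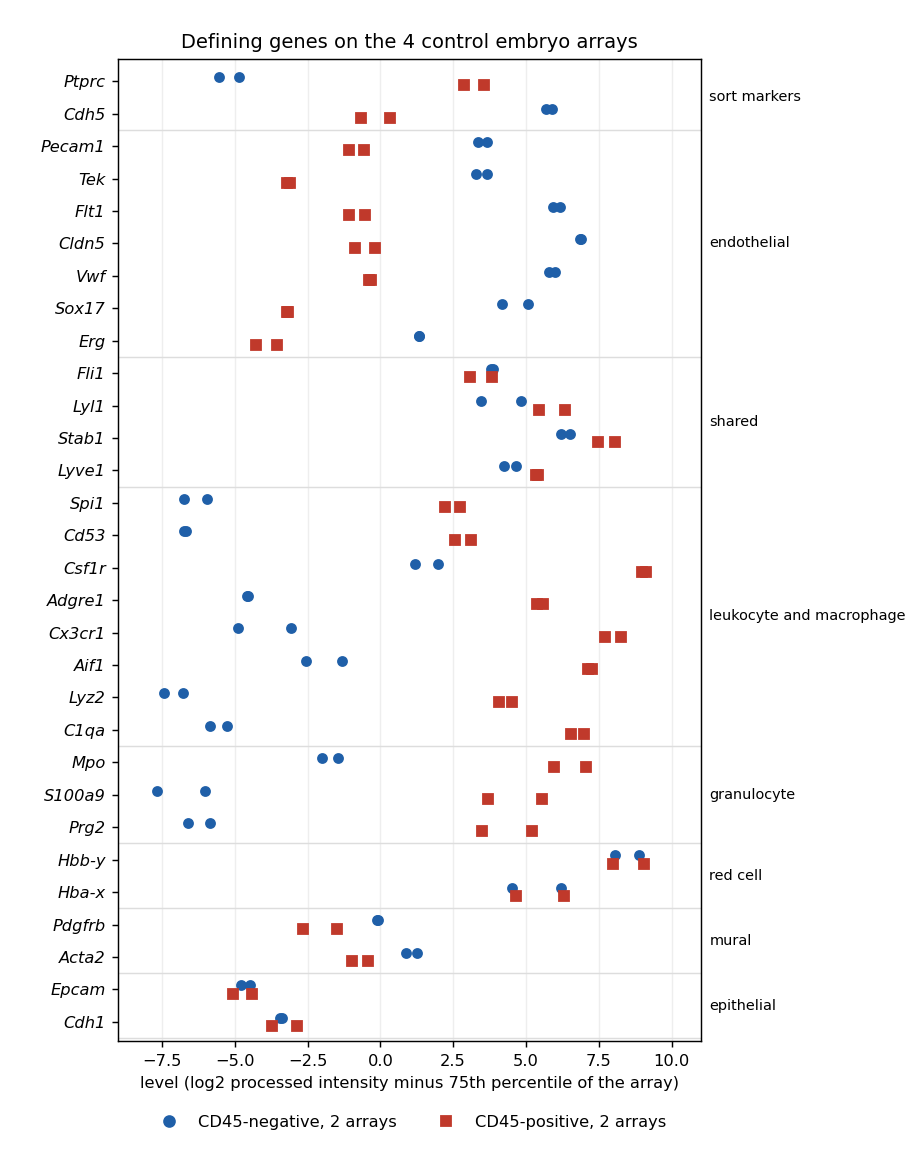
Levels (horizontal axis, log2 intensity relative to each array's 75th percentile) of the sort antigens and of genes that define other cell types (vertical axis, grouped by cell type) on each control embryo array; circles are the CD45-negative and squares the CD45-positive arrays. Ptprc, Csf1r and C1qa are high on both CD45-positive arrays, Cldn5 and Tek are high on both CD45-negative arrays, and the embryonic globin Hbb-y overlaps between gates.

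Among genes well above background on all 4 arrays, the difference of the chemokine Ccl4 was highest, with -3.83 and -2.96 on the CD45-negative and 9.72 and 8.13 on the CD45-positive arrays, a difference of 12.32 ± 0.83 (limma adjusted p = 1.24e-06). The complement genes C1qc (11.56) and C1qb (9.24), the adaptor Tyrobp (11.38), the chemokines Ccl3 (11.03) and Ccl12 (9.67), the transglutaminase subunit F13a1 (10.52), Ifi204 of the interferon-induced p200 family (9.85), the Fc receptor-like gene Fcrls (9.36), Ms4a6d (9.26) and Rac2 (9.16) were among the 12 highest. Where CD45-negative cells stood at background, the highest bounds belonged to C1qa at 6.99 and 6.55 (at least 3315-fold), Ifi207 (at least 2990-fold), the survival gene Bcl2a1d (at least 2152-fold) and the chemokine Ccl9 (at least 1851-fold). They were followed by Ms4a7, Evi2a, the folate receptor Folr2, the costimulatory gene Cd86, Igsf6, the phagosomal metal transporter Slc11a1, Cd300c2 and the eotaxin Ccl24, each at least 873-fold higher. Bcl2a1d, the Ifi200 genes and the Ms4a6 genes have near-identical relatives, and a 60-mer probe can bind more than 1 of them.

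On the CD45-negative side, Tmem255a lay at 5.19 and 5.27 against -3.57 and -2.58 in CD45-positive cells, a difference of -8.30 ± 0.70 (limma adjusted p = 6.47e-06). Gpr182, a chemokine-binding receptor of endothelium, lay at 5.34 and 5.96 against -3.19 and -1.75. Esm1, the secreted proteoglycan endocan of sprouting endothelial tip cells (-7.95), the SOXF factors Sox17 (-7.80), Sox18 (-7.77) and Sox7 (-7.56), the adhesion receptor Adgrf5 (-7.61), Gm1987 (-7.59), the adaptor She (-7.42), endomucin Emcn (-7.41), Cldn5 (-7.40) and Tmem204 (-7.36) completed the 12 lowest. Where CD45-positive cells stood at background, the morphogen Dhh was at least 191-fold higher in CD45-negative cells. Plac1 (at least 105-fold), the potassium channel Kcnq1, Enpp3, the nuclear receptor Nr5a2, Prrg3, the cytidine deaminase Cda, Cyyr1, the Notch ligand Dll4, Palmd and the lymphatic receptor Flt4 (at least 58.5-fold) followed.

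Endothelial adhesion and junction genes were nearly all lower in CD45-positive cells: of 28 tested, 26 were called lower and 1 higher, with a median difference of -4.51 against 0.08 over all genes. Emcn lay at 4.56 and 4.48 in CD45-negative and -2.58 and -3.20 in CD45-positive cells. Ptprb, the vascular phosphatase VE-PTP that acts on VE-cadherin and Tie-2, differed by -7.16 ± 0.38 (limma adjusted p = 2.48e-07). Plvap, the protein of fenestral and caveolar diaphragms (-7.12), Robo4 (-7.02) and Esam (-6.70) were lower by like amounts, the tight junction scaffold Tjp1 by -5.15 and the gap junction gene Gja1 by -1.91. The tight junction gene Ocln was not called (-1.15, limma adjusted p = 0.315). Mcam (CD146) was the exception called higher, and its probes opposed each other. The brightest probe gave 5.69 and 5.25 in CD45-negative and 7.28 and 7.22 in CD45-positive cells, and the other probe gave 1.76 and 1.76 on the CD45-negative and -4.51 and -4.67 on the CD45-positive arrays, at least 77.3-fold higher in CD45-negative cells, as it was not well above background in CD45-positive cells. Leaving out single arrays of those compared ended some calls; here and below the array whose omission gave the highest adjusted p is named with its values, followed by the number of arrays whose omission ended the call. One such call was that of Gja1 without CD45-positive replicate 2 (-1.32, limma adjusted p = 0.0944, 2 arrays).

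Receptors through which endothelium reads growth and guidance cues were mostly lower: 21 of 25 tested were called lower and 1 higher (median -3.51). Flt1, a VEGF receptor that mostly acts as a trap, lay at 5.92 and 6.17 in CD45-negative and -1.07 and -0.51 in CD45-positive cells. Flt4, the VEGF-C receptor, lay at 1.29 and 1.36 and was not well above background in CD45-positive cells at -6.45 and -6.93. Aplnr, the apelin receptor of veins and sprouts (-6.66), the adrenomedullin receptor partner Ramp2 (-6.70), the venous ephrin receptor Ephb4 (-6.38) and the netrin receptor Unc5b (-5.89) were each lower by more than 5 on the log2 scale. Kdr, the main VEGF receptor of endothelium, was called lower by only -0.91 ± 0.26 (limma adjusted p = 0.0197) with its brightest probe. Its other probe gave 6.83 and 6.94 on the CD45-negative and -0.61 and -0.10 on the CD45-positive arrays, a difference of -7.24. Ednrb, an endothelin receptor, was called higher (1.30), while Nrp1 (-0.23), Insr (-0.52) and Tgfbr2 (0.15) were not called. A single array left out ended the call of Kdr without CD45-negative replicate 1 (-0.64, limma adjusted p = 0.136, 2 arrays).

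Signals that endothelium makes were also lower, with 24 of 28 called lower and none called higher (background 20.0% higher). Apln, the apelin peptide of tip cells, lay at 2.73 and 3.66 in CD45-negative and -4.55 and -3.31 in CD45-positive cells. Sema3g, an arterial semaphorin, differed by -6.74, Bmp6 by at least 15.1-fold and the growth factor Igf2 by -5.36. Kitl, the stem cell factor that blood progenitors need, lay at 1.78 and 1.11 against -1.61 and -2.32, so the gates did not overlap. Edn1 (4.80 and 3.09 against 3.40 and 0.38), Pdgfa (-1.40), Pgf (-2.12) and Bmp2 (0.87) were not called.

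Transcription factors of endothelium differed among themselves. Of 27 tested, 17 were called lower and 2 higher (median -2.54). Sox17 lay at 5.07 and 4.18 in CD45-negative and -3.17 and -3.19 in CD45-positive cells, Sox7 at 4.88 and 3.41 against -3.21 and -3.61, and Foxc2 at 4.10 and 2.82 against -3.96 and -2.31. Among ETS factors, Erg (-5.24) and Ets1 (-4.51) were lower, while Fli1 (-0.37, limma adjusted p = 0.249) and Ets2 (0.18) were not called. Etv2 lay at -0.14 and -0.13 against -2.39 and -2.75 and was not called (limma adjusted p = 0.0726). Of the factors that blood progenitors and endothelium both use, Lmo2 (-0.84) and Gata2 (-3.21) were lower, Tal1 (-0.99) was not called, and Lyl1 (1.76 ± 0.41, limma adjusted p = 0.00607) and Mef2c (0.97) were higher. Epas1 (HIF-2 alpha) was not called with its brightest probe (-0.04), whereas another of its probes gave 6.73 and 6.44 on the CD45-negative and 0.07 and 0.17 on the CD45-positive arrays, a difference of -6.47. Leaving out 1 array ended the call of Lyl1 without CD45-positive replicate 2 (1.31, limma adjusted p = 0.051, 1 array).

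Genes of arteries, of veins, capillaries and lymphatics, and of the endocardium were lower in CD45-positive cells. Of arterial genes, 20 of 24 were called lower and none higher (median -4.51); the artery connexin Gja5 lay at 2.38 and 3.41 against -3.33 and -3.08, and the NOTCH target Hey1 at 6.03 and 4.37 against -0.75 and -0.19. A dimmer second probe of Gja5 was well above background on 1 of the 4 arrays. Of venous, capillary and lymphatic genes, 21 of 25 were lower, among them the venous factor Nr2f2 (-4.68), von Willebrand factor Vwf (-6.25), the brain vessel factors Foxf2 (-5.92) and Foxq1 (-5.67), and the lymphatic factor Prox1 (-3.82). The lactate transporter Slc16a1 was the member called higher (1.92 ± 0.23). Of endocardial genes, 14 of 15 were lower, with Npr3 at least 51.2-fold, Gata4 by -6.17 and the cushion matrix gene Hapln1 by -7.35. Gata5 was not called (0.43).

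Notch pathway genes were called in both directions. Over 32 tested genes, 16 were called lower and 8 higher. Dll4, the ligand of arteries and tip cells, lay at 1.64 and 1.58 in CD45-negative cells and was not well above background at -4.51 and -5.03 in CD45-positive cells. The receptor Notch4 (-5.97), the targets Hey1 (-5.67) and Hes1 (-3.97) and the feedback gene Nrarp (-5.33) were lower too. Among those called higher were the receptor Notch2 (1.77), the nuclear partner Rbpj (2.34 ± 0.20), the E3 ligase Dtx4 (3.95), the sheddase Adam17 (1.26), the secretase genes Psenen (1.00) and Ncstn (0.73), and the glycosyltransferase Rfng (1.30). Notch1 was not called with its brightest probe (-0.61 and -0.46 against 0.27 and -2.14). Its other probe gave -1.55 and -2.01 on the CD45-negative and -3.81 and -4.39 on the CD45-positive arrays, a difference of -2.32 ± 0.30. Single arrays left out ended the calls of Adam17 without CD45-negative replicate 1 (0.94, limma adjusted p = 0.152, 3 arrays) and Ncstn without CD45-positive replicate 1 (0.49, limma adjusted p = 0.198, 2 arrays).

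All 24 vascular basement membrane genes tested were called lower (median -4.41). The collagen IV chain Col4a1 lay at 6.71 and 6.43 in CD45-negative and -0.31 and 0.22 in CD45-positive cells, the laminin chain Lama4 at 4.77 and 4.72 against -3.13 and -2.05, and the multimerin Mmrn2 at 7.13 and 7.08 against -0.34 and 0.21. Nid2 (-1.26) and Emilin1 (-1.03) showed the smallest differences of the list. Of BMP and TGF-beta genes, 18 of 28 were lower, with the latent TGF-beta anchor Lrrc32 at -5.60, the co-receptor Tgfbr3 at -4.17 and the inhibitor Smad6 at -4.14. The members called higher were Nrros, which holds latent TGF-beta on macrophages (2.64 ± 0.36), Tgfbr1 (1.33), Id2 (1.26) and Tgfbi (1.01). Of 10 caveolae genes, 8 were lower, including Cavin2 (-6.93) and Ehd2 (-6.72). The membrane-bending genes Ehd4 (2.50) and Pacsin2 (0.96) were higher. Single arrays left out ended the calls of Nid2 without CD45-negative replicate 1 (-1.02, limma adjusted p = 0.0664, 1 array), Emilin1 without CD45-positive replicate 1 (-0.85, limma adjusted p = 0.0724, 2 arrays), Tgfbi without CD45-positive replicate 1 (0.69, limma adjusted p = 0.183, 2 arrays) and Id2 without CD45-negative replicate 2 (0.72, limma adjusted p = 0.241, 3 arrays).

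Of flow-responsive, vasoactive and coagulation genes, 17 of 23 were lower and 1 was higher. Nos3, the endothelial nitric oxide synthase, lay at 5.66 and 6.05 in CD45-negative and -0.09 and 0.02 in CD45-positive cells. Tm4sf1 (-7.00) and the prostacyclin synthase Ptgis (-4.91) were lower, and the cyclooxygenase Ptgs1 was higher (2.22 ± 0.20, limma adjusted p = 1.09e-05). The flow-induced factors Klf2 (5.80 and 5.27 against 6.64 and 6.13) and Klf4 (-0.65) were not called. Scavenger receptors, which sinusoidal endothelium and macrophages share, moved in both directions, with 10 of 17 higher and 4 lower. Timd4, a phosphatidylserine receptor (at least 55.3-fold), Fcgr2b (at least 53.7-fold) and the scavenger receptor Msr1 (at least 88.9-fold) were higher, and Stab2 (-5.29), Oit3 (-6.09), Scarf1 and Clec4g (-3.42) were lower. Lyve1, found on lymphatic endothelium and on embryonic macrophages, lay at 4.65 and 4.24 against 5.33 and 5.40 and was not called.

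Promoters of genes on the CD45-negative side are shown for the surface lectin Clec14a and the receptor Tie1, whose RNA differed by -6.49 and -4.93 and which hold the letters GGGTGTGG, a KLF-type motif, near their start. Each stretch is the 120 bases before the gene start in RefSeq's promoter table (assembly GRCm38.p6), written 5′ to 3′ on the gene's strand, with the motif in capitals on whichever strand it lies.
Clec14a (chr12:58269259-58269378, - strand): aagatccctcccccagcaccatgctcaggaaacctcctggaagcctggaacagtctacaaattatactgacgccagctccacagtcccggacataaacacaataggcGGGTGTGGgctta
Tie1 (chr4:118489850-118489969, - strand): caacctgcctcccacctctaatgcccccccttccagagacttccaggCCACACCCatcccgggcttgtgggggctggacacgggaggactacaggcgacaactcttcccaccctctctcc
The motif began 13 bases before the start of Clec14a and 73 bases before that of Tie1. It was found on either strand in 3.61% of promoter windows of genes called lower, in 4.22% of those called higher and in 3.85% of those of all genes tested, a window being 250 bases before to 50 bases after a gene start.

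Genes found on all or most leukocytes were higher in CD45-positive cells. Of 27 surface genes tested, 26 were called higher and 1 lower (median 4.64). Cd52, a small glycoprotein of leukocytes, lay at -5.47 and -4.40 in CD45-negative and 6.47 and 6.19 in CD45-positive cells. The tetraspanin Cd53 was at least 222-fold higher, Evi2a at least 1378-fold and the sialic acid lectin Cd33 at least 183-fold. The beta-2 integrin chain Itgb2 differed by 4.64 ± 0.29 (limma adjusted p = 7.82e-07), and Cd47, the signal that restrains phagocytes, by 0.95. Itgam (CD11b) was the exception called lower with its brightest probe, from 4.56 and 4.33 to 3.10 and 2.88. Its other probes were higher in CD45-positive cells, 1 of them at -2.68 and -3.19 on the CD45-negative and 1.55 and 0.93 on the CD45-positive arrays, a difference of 4.18. A single array left out ended the call of Cd47 without CD45-positive replicate 1 (0.49, limma adjusted p = 0.248, 2 arrays).

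Genes that shape the leukocyte actin skeleton through Rac and Vav were all higher, 24 of 24 (median 5.89). Rac2, the hematopoietic Rac GTPase, lay at -3.32 and -3.38 in CD45-negative and 5.90 and 5.73 in CD45-positive cells. The myosin Myo1f (9.94), the WAVE complex subunit Nckap1l (9.07) and the GTPase-activating gene Arhgap30 (at least 175-fold) showed the largest differences, and Wipf1 (0.53) the smallest. Of signalling genes that work through ITAM receptors, 23 of 24 were higher and none lower (median 5.96). Tyrobp lay at -3.97 and -3.10 against 8.02 and 7.66, its partner receptor Trem2 at -4.56 and -4.47 against 7.03 and 6.29, and the inhibitory receptor Lilrb4a at -2.90 and -6.50 against 7.37 and 5.57. The CD45-negative arrays of Lilrb4a were far apart, 1 of them at background. The kinases Btk (6.76) and Syk (3.37) were higher as well. Cd300lf was not called with its brightest probe (0.11), while another gave -6.58 and -7.38 on the CD45-negative and 2.07 and 0.02 on the CD45-positive arrays, at least 63.6-fold higher in CD45-positive cells, as it was not well above background in CD45-negative cells. Leaving out 1 array ended the call of Wipf1 without CD45-positive replicate 1 (0.51, limma adjusted p = 0.0609, 2 arrays).

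Macrophage transcription factors were higher in 17 of 25 cases and lower in 1. Spi1 codes for PU.1, the ETS factor that myeloid cells depend on, and lay at -6.74 and -5.96, not well above background, in CD45-negative and at 2.72 and 2.21 in CD45-positive cells, at least 171-fold higher. Irf5 (7.39), Ikzf1 (6.52), Spic (6.00), Mitf (5.55), Cebpa (5.41) and Runx1 (5.01 ± 0.67, limma adjusted p = 1.77e-04) were higher. Gata6 was the member called lower (-5.37). Nr4a1 was not called (0.50).

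The PU.1-type motif GAGGAAGT was looked for on both strands of every promoter window. It was in 172 of 3932 windows of genes called higher (4.37%), in 2.24% of windows of genes called lower, in 3.07% of those of all genes tested and in 3.2% of all windows. Among the windows of genes called higher by over 5, a class formed after the differences had been seen, the share was 11.7% of 324, and among those called lower by over 5 it was 0.459% of 218. The following promoters hold it within the 120 bases before the start and belong to genes described here with large differences: the Rac activator Vav1 (8.00), the Fc receptor Fcgr4 (6.94), the engulfment receptor Havcr2 (at least 73.9-fold) and the neutrophil protease Prtn3 (6.07).
Vav1 (chr17:57278980-57279099, + strand): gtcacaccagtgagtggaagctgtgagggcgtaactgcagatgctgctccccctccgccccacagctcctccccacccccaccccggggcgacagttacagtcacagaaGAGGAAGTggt
Fcgr4 (chr1:171018806-171018925, + strand): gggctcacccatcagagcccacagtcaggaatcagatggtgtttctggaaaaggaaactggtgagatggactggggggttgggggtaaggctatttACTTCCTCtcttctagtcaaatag
Havcr2 (chr11:46454811-46454930, + strand): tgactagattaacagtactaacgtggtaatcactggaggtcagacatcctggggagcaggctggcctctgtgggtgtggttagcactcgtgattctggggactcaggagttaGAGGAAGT
Prtn3 (chr10:79879547-79879666, + strand): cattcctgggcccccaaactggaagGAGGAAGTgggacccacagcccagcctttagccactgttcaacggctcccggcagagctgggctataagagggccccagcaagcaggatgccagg
In Vav1, Fcgr4 and Havcr2 the motif began 11, 24 and 8 bases before the start, and in Prtn3 it lay 95 bases before it. The related letters of class I ETS factors, CCGGAAGT, were in 7.38% of windows of genes called higher, 2.58% of those called lower and 6.49% of those tested. A match is a stretch of letters and not a measured binding site.

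Macrophage identity genes were higher in 28 of 29 cases (median 7.82), and none was lower. F13a1 lay at -3.00 and -2.44 in CD45-negative and 7.64 and 7.95 in CD45-positive cells, and the pore-forming Mpeg1 at -4.24 and -3.84 against 6.41 and 6.09. Ms4a7 (at least 1464-fold), Cd86 (at least 1025-fold), Folr2 (at least 1080-fold) and the lysozyme Lyz2 (at least 603-fold) stood at background in CD45-negative cells. Csf1r had 3 probes with differences from 4.91 to 9.56. The mannose receptor Mrc1 (4.06) and the efferocytosis receptor Mertk (4.31) were higher, and Cmklr1, the chemerin receptor, was not called (1.87, limma adjusted p = 0.101).

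Complement and engulfment genes were higher in 19 of 29 and lower in 4 cases. C1qc lay at -4.08 and -3.97 against 7.63 and 7.43, and the anaphylatoxin receptor C5ar1 was at least 179-fold higher. Gas6, the bridging ligand of dying cells, lay at 3.84 and 3.81 against 6.93 and 7.46. Called lower were the bridging protein Mfge8 (-2.96), the adaptor Gulp1 (-3.07), the Rac activator Dock1 (-1.45) and Cd93 (-4.60), a lectin that endothelium also carries. Itgav (0.81) and Itgb3 (-0.24) were not called. Of 8 Fc receptor genes, 7 were higher, with Fcrls at -2.90 and -3.13 against 6.48 and 6.21 and Fcgr1 at 8.49, and Fcer2a was not called (0.03).

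Toll-like receptor, lectin and inflammasome genes were higher in 30 of 35 cases and lower in none. Ly86, the partner of the Toll-like molecule Cd180, lay at -4.87 and -3.95 against 6.98 and 6.82. The lectin Clec10a was at least 638-fold higher and the cytokine Il1b at least 329-fold. Tlr2 differed by 6.88 and Tlr4 by 2.51, and Tlr3 (-0.97) and Tlr9 (-0.13) were not called. The probe used for Tlr7 gave 3.34, and another gave -6.59 and -7.38 on the CD45-negative and 3.22 and 3.00 on the CD45-positive arrays, at least 266-fold higher in CD45-positive cells, as it was not well above background in CD45-negative cells. Of chemokine receptors, 9 of 15 were higher, with Ccrl2 by 5.92. The scavenging receptors Ackr3 (-3.97) and Ackr2 were lower. Cxcr4, the receptor for the endothelial signal Cxcl12, lay at -0.33 and -0.84 against 0.38 and 0.70 and was not called.

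Secreted signals of macrophages were higher in 23 of 30 cases. Ccl3 lay at -3.51 and -2.41 against 8.34 and 7.79, Tnf at -1.53 and -1.83 against 7.27 and 5.58, and Ccl2 at 2.83 and -0.54 against 9.24 and 8.37. Both CD45-positive arrays were above both CD45-negative arrays for each of these. Il6 (5.71), the matricellular cytokine Spp1 (6.52), Osm (3.50) and, with its brightest probe, Igf1 (1.57) were higher too. Vegfa was the member called lower (2.98 and 1.51 against -0.09 and -0.53, limma adjusted p = 0.0015). Cxcl1 (2.77), Tgfb1 (0.59) and Csf1 (2.00) were not called. Many of these cytokine genes are also induced when tissue is digested and sorted. Of 22 immediate early and dissociation stress genes, 9 were called higher and none lower (median 0.89), with Egr2 at 3.30, Zfp36 at 3.02 and Atf3 at 2.65, while Jun (0.51) and Hspb1 (-0.72) were not called. The summed level of that list, the log2 of its members' added intensities, was 10.22 and 9.53 on the CD45-negative and 10.71 and 10.62 on the CD45-positive arrays, and its part in the cytokine differences was not tested. Leaving out 1 array ended the call of Il6 without CD45-negative replicate 2 (2.80, limma adjusted p = 0.173, 2 arrays).

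Lysosomal genes were higher in 36 of 38 cases, with a median difference of 2.05. Ctss, the cathepsin of antigen-presenting cells, lay at -5.52 and -3.10 against 7.46 and 7.20. Gpnmb (at least 37.3-fold) and Ctsc (6.19) followed, and broadly used genes such as Lamp1 (1.99), Psap (2.10) and the regulator Tfeb (1.14) differed less. Ctsk, the collagen-degrading cathepsin, was the member called lower (-2.03 ± 0.39). Of 10 NADPH oxidase genes that passed the detection filter, of 13 on the array, 7 were higher. Among them were the phagocyte subunits Cybb (at least 81.9-fold), Ncf1 (7.42) and Ncf4 (6.24). The endothelial oxidase Nox4 was lower (-6.03).

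Microglia genes were higher in 15 of 20 cases and lower in none. P2ry12, the purine receptor of microglial processes, was at least 261-fold higher, Gpr34 at least 265-fold and P2ry13 at least 187-fold. Tmem119, a late microglia marker, lay at 0.94 and 1.44 against 2.23 and 2.69, a difference of 1.27 ± 0.31 (limma adjusted p = 0.00798). Sall1, the factor that marks microglia among macrophages, was not called (-2.05 and -1.53 against -4.51 and -2.29). Siglech was not called with its brightest probe (-0.09), while another probe lay at -6.56 and -7.34 on the CD45-negative and 3.04 and 3.44 on the CD45-positive arrays, at least 291-fold higher in CD45-positive cells, as it was not well above background in CD45-negative cells. A single array left out ended the call of Tmem119 without CD45-negative replicate 1 (1.02, limma adjusted p = 0.0624, 2 arrays).

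Antigen presentation genes were higher in 19 of 21 cases. Cd74, the invariant chain, lay at -4.31 and -6.00 against 2.19 and 1.14. H2-Aa (at least 1.77-fold), H2-Ab1 (1.68) and H2-Eb1 (2.23), the class II chains, were higher, as were the class I loading genes Psmb8 (6.63), Psmb9 (5.61) and Tap1 (4.83). Cd40 was the member called lower (-4.06 ± 0.76, limma adjusted p = 0.00166), and Zbtb46 was not called (-0.62). Class II calls were lost when single arrays were left out, for H2-Aa without CD45-positive replicate 2 (2.28, limma adjusted p = 0.17, 3 arrays), H2-Ab1 without CD45-negative replicate 2 (1.16, limma adjusted p = 0.0827, 2 arrays) and H2-Eb1 without CD45-positive replicate 1 (1.93, limma adjusted p = 0.173, 4 arrays).

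Interferon response genes were higher in 35 of 43 cases and lower in none (median 4.05). Oas2, a sensor of double-stranded RNA, lay at -5.28 and -5.16 against 2.46 and 3.49. Mx1 was at least 78.5-fold and Ifit1 at least 57.2-fold higher, and Irf7 differed by 4.84 and Isg15 by 4.60. The CD45-positive arrays of Isg15 were far apart (0.70 and 0.30 against 7.19 and 3.01). The signal transducer Stat2 (0.80, limma adjusted p = 0.0629) and the receptor chain Ifnar1 (0.29) were not called, nor were Ifi44 (not well above background in CD45-positive cells) and Ifitm2 (-0.00). The summed level of the list was 7.20 and 6.76 on the CD45-negative and 10.19 and 8.98 on the CD45-positive arrays, so the CD45-positive replicates differed by more than the CD45-negative ones. The interferon-stimulated response element (GAAA, any 2 bases, GAAA) was in 43.2% of the list's 37 promoter windows against 3.1% over all genes tested. It was in 4.7% of windows of genes called higher and 2.11% of those called lower. Leaving out 1 array ended the call of Gbp2 without CD45-positive replicate 1 (2.75, limma adjusted p = 0.0976, 2 arrays). Examples are the ubiquitin-like Isg15, the GTPase Gbp2 (4.44) and the E3 ligase Trim30a (4.87).
Isg15 (chr4:156200819-156200938, - strand): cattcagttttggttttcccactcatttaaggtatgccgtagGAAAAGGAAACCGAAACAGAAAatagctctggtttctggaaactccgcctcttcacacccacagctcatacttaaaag
Gbp2 (chr3:142620543-142620662, + strand): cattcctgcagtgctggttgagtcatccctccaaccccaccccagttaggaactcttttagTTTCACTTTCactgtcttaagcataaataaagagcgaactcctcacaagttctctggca
Trim30a (chr7:104465194-104465313, - strand): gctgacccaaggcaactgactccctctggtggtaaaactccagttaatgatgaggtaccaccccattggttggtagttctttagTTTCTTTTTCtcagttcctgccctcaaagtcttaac
Isg15 holds 3 overlapping matches that begin 78, 72 and 66 bases before its start, and Gbp2 and Trim30a hold a single match each, 59 and 36 bases before it.

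**Figure D3:**
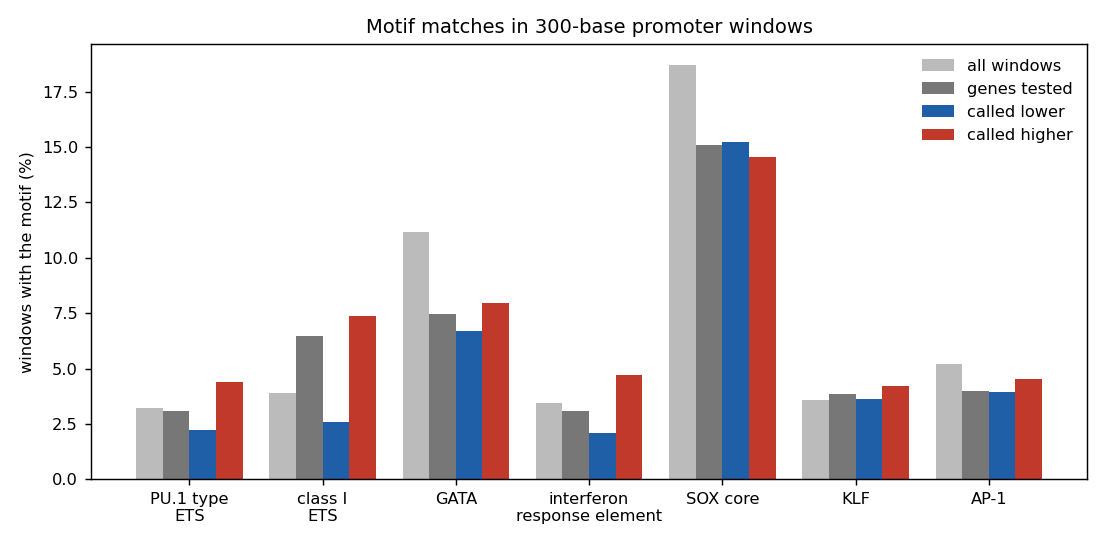
Share of promoter windows (vertical axis, percent) that hold each of 7 short motifs on either strand (horizontal axis), for all windows, genes tested, genes called higher and genes called lower in CD45-positive cells. The PU.1-type motif and the interferon-stimulated response element are more frequent in windows of genes called higher (4.37% and 4.7%) than of genes called lower (2.24% and 2.11%).

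Genes of other blood lineages were higher in part. Of 25 monocyte and granulocyte genes, 13 were higher and 1 lower. The calprotectin chains S100a9 (at least 762-fold) and S100a8 (at least 308-fold), haptoglobin Hp (7.58) and the granule enzyme Mpo lay high, Mpo at -2.02 and -1.45 against 5.96 and 7.05. Lcn2 (1.12), Gfi1 (1.83) and the secondary and tertiary granule genes Camp (3.77) and Mmp8 (at background in CD45-negative cells) were not called, and the proteoglycan Vcan was lower (-1.12). Of 15 mast cell, basophil and eosinophil genes that passed the detection filter, of 21 on the array, 10 were higher. Fcer1a, Mcpt1, Mcpt2, Tpsab1, Cma1 and Ms4a2 did not pass it. Of the 15, 7 were well above background on both CD45-positive arrays and on neither CD45-negative array. The eosinophil granule genes Prg2 (at least 628-fold), Ear2 (at least 234-fold) and Epx (at least 114-fold) stood at background in CD45-negative cells. Prg2 lay at 3.48 and 5.22 and Epx at 0.78 and 3.00 on the CD45-positive arrays. Cpa3, a mast cell protease, was at least 10.5-fold higher, and the stem cell factor receptor Kit (-2.87) and Gata2 (-3.21) were lower. Mcpt4 (not well above background in either gate) and Tpsb2 (-0.17), genes of mature mast cells, were not called. Leaving out 1 array ended the call of Vcan without CD45-positive replicate 1 (-0.81, limma adjusted p = 0.115, 2 arrays).

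Platelet and megakaryocyte genes split, 6 of 28 higher and 9 lower, against a background of 20.0% and 16.6%. The platelet chemokine Pf4, also found in embryonic macrophages, lay at 3.00 and 2.39 against 8.46 and 8.10. Bin2 (6.07) and Rgs18 (5.32) were higher, and genes that endothelium shares, such as Vwf (-6.25), Mmrn1 (-6.14) and Itga2 (at least 21.2-fold), were lower. Itga2b (CD41), the platelet integrin and early blood marker, was lower (0.11 and -0.46 against -1.82 and -1.22, limma adjusted p = 0.0467), and Gp9 was not called (0.01). The lower call was lost for Itga2b without CD45-positive replicate 1 (-1.05, limma adjusted p = 0.229, 4 arrays).

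Most erythroid genes were not called. The embryonic globin Hbb-bh1 lay at 5.50 and 7.00 in CD45-negative and 5.52 and 7.38 in CD45-positive cells, and Hbb-y at 8.06 and 8.86 against 7.98 and 9.06. The gates overlapped for both, and the larger step was between replicates of a gate. The list had 7 of 30 genes called higher and none lower (median 0.49), among them the spectrin Sptb (at least 1.38-fold), the factor Nfe2 (2.30) and Hemgn (2.15). Alas2 (0.42) was not called. The call was lost for Sptb without CD45-positive replicate 2 (1.56, limma adjusted p = 0.215, 2 arrays).

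Genes of hemogenic endothelium and stem cells were higher in 7 and lower in 12 of 32 cases. Runx1, needed for blood to emerge from endothelium, lay at 0.67 and -2.15 in CD45-negative and 4.61 and 3.93 in CD45-positive cells, and the progenitor factor Myb at -1.25 and -1.25 against 0.84 and 1.82. Il7r (at least 12.3-fold), Slamf1 (at least 4.92-fold) and Flt3 (2.30) were higher. Mecom (at least 4.16-fold), Prom1 (-3.96), Cd34 (-3.42), Kit (-2.87), Procr (-3.36) and Hoxa9 (-1.52) were lower. Meis1 (-0.32) and Hlf (-0.37) were not called. A single array left out ended the call of Flt3 without CD45-positive replicate 1 (1.58, limma adjusted p = 0.241, 3 arrays).

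Lymphoid genes gave 3 higher and 7 lower calls among 23 members that passed the detection filter, of 32 on the array. Cd3e (0.28) was not called. Il7r, Cd79b (3.87 ± 0.26) and Nkg7 (2.12) were higher, while Thy1 (-5.99), Lck (-5.02), Ebf1 (-4.78) and Tcf7 (at least 16.3-fold) were lower.

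Genes of general cell upkeep differed less, 8 of 24 higher and none lower (median 0.35); with quantile scaling 8 were higher and 3 lower. Hprt (1.55) and Gusb (3.08) were higher, and Actb (0.23) and Tbp (0.09) were not called. Replication and mitosis genes were higher in 13 and lower in 5 of 41 cases, with Mki67 at 1.04 ± 0.14, E2f1 at 1.07 and Gins2 at 1.08, and Top2a (0.24) and Cdk1 (0.23) not called. With quantile scaling 8 of this list were higher and 5 lower, and its median went from 0.34 to 0.10. The cell cycle inhibitor Cdkn1c lay at 6.44 and 6.74 against 2.47 and 3.43, and Ccnd1 (-0.98) and Ccnd2 (-1.82) were lower. Of 24 glycolysis genes, 8 were higher and 1 lower, and the hexokinase of blood cells Hk3 (at least 648-fold) stood apart, while Gapdh (0.49) and Ldha (0.33) were not called. With the percentile taken over probes detected on all arrays, 5 glycolysis genes were higher and 2 lower. The glucose transporter Slc2a1, abundant in brain vessels, was lower (-2.14). The lower call was lost for Ccnd1 without CD45-negative replicate 2 (-0.84, limma adjusted p = 0.0736, 2 arrays).

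Iron and heme handling genes were higher in 16 of 20 cases. Slc11a1 lay at 5.26 and 4.95 on the CD45-positive arrays and was not well above background on the others (at least 1059-fold). The heme oxygenase Hmox1 lay at 3.94 and 3.27 against 6.17 and 6.80, and the iron exporter Slc40a1 at 0.37 and 1.38 against 4.12 and 4.83. Both were higher on each CD45-positive array, and the ferroxidase Heph was lower (-5.42). Of 27 lipid and eicosanoid genes, 17 were higher and 5 lower. Hpgds, a prostaglandin D synthase (at least 299-fold), Alox5 (6.17), the lipoprotein lipase Lpl (5.60) and Apoe (3.79) were higher. Fabp4 (-3.81), Pltp (-3.05), Scd1 (-1.74) and Scd2 (-1.03) were lower. Matrix proteases and inhibitors split, with 7 higher, including Mmp13 (at least 17.3-fold), and 9 lower, including Timp3 (-6.46), Mmp15 (-6.16) and Mmp2 (-3.99). The lower call was lost for Scd1 without CD45-negative replicate 2 (-1.51, limma adjusted p = 0.0618, 2 arrays).

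Markers of cells outside the sort were also set beside these results. Mesenchymal and mural genes gave 16 lower and no higher calls among 25 (median -1.79), and their summed level was 6.05 and 5.99 on the CD45-negative and 3.35 and 4.46 on the CD45-positive arrays. Pdgfrb lay at -0.12 and -0.07 against -2.66 and -1.47, and Col1a1 at 2.64 and 2.42 against -0.35 and 1.20, so RNA of both was detected in each gate. These genes were lower on the same side as the endothelial lists, and their part in the endothelial differences was not tested. Thy1 (-5.99) and the channel genes Abcc9 (at least 43.2-fold) and Kcnj8 (at least 3.45-fold) were lower, and Cspg4 (-0.48) and Rgs5 (-1.60) were not called. Single arrays left out ended the calls of Pdgfrb without CD45-positive replicate 1 (-1.38, limma adjusted p = 0.0821, 1 array) and Col1a1 without CD45-positive replicate 1 (-1.33, limma adjusted p = 0.139, 2 arrays).

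Neural genes gave 1 higher and 6 lower calls among 22. Sox2 (-0.04) and Tubb3 (0.14) were not called, the neural progenitor filament Nes was lower (-1.84), and Elavl4 was higher with its brightest probe (3.02) and level with the other (0.01). Muscle genes gave 2 and 4, with Tnnt2 at -2.96, Tnni1 at -4.60 and Mybpc3 at 4.91. None of 20 epithelial genes was called (background 36.6% either way), with Cdh1 at -3.37 and -3.44 against -2.86 and -3.72 and Epcam not well above background in CD45-positive cells. Endoderm and liver genes gave 1 higher and 6 lower calls among 28, 1 of the lower being the endothelial factor Sox17. Afp lay at 5.89 and 4.66 against 2.77 and 2.76, Alb was not called (-2.39, limma adjusted p = 0.077) and Apoc2, a lipoprotein gene that macrophages also transcribe, was higher (2.60). Single arrays left out ended the calls of Afp without CD45-negative replicate 1 (-1.89, limma adjusted p = 0.202, 3 arrays) and Apoc2 without CD45-negative replicate 2 (2.13, limma adjusted p = 0.0746, 2 arrays).

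Position and growth genes were lower in CD45-positive cells. Of 35 Hox genes tested, 21 were called lower and none higher (median -2.43). Hoxd8 lay at 1.65 and 0.91 in CD45-negative and -5.88 and -4.10 in CD45-positive cells, and Hoxa3 at 3.11 and 2.37 against -3.05 and -1.57. Hoxd9 (-5.16) was lower too, and Hoxa6 (-0.58) and Hoxc4 (-0.79) were not called. Of 22 imprinted growth genes, 20 were lower and 1 higher (median -3.08). Igf2, the fetal growth factor, lay at 4.51 and 4.63 against -0.82 and -0.76, H19, the non-coding RNA beside it, at 9.78 and 9.25 against 5.81 and 5.83, and Mest at 8.34 and 8.07 against 1.66 and 3.13. The gates did not overlap for these, Slc38a4 (-4.67) and Plagl1 (-4.70) were lower too, Phlda2 was not called (at background in CD45-positive cells), and Impact was the member called higher (1.71 ± 0.22).

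Ligand and receptor genes of 37 pairs taken from textbook knowledge were set side by side by gate. The pairs were chosen with earlier results of these data known, and some genes stand in more than 1 pair. No share over all genes was worked out for 2 genes called alike, so the counts of pairs have no background. Both genes were higher in CD45-positive cells in 9 pairs and both lower in 10. Of the first kind were Gas6 and Axl (3.37 and 2.23), Apoe and Trem2 (3.79 and 11.17), and Spp1 and Cd44 (6.52 and 3.73). Of the second were Apln and Aplnr (-7.13 and -6.66), Efnb2 and Ephb4 (-4.35 and -6.38), Adm and Calcrl (-3.71 and -3.55) and Vegfc and Flt4. Opposite calls were found in 3 pairs. The endothelial chemokine Cx3cl1 was lower (3.03 and 2.44 against 0.58 and -1.64) and its receptor Cx3cr1 higher. Igf1 was higher with its brightest probe (2.80 and 2.72 against 4.54 and 4.12) and its receptor Igf1r lower (-1.79). Another Igf1 probe gave a difference of 1.59, and the remaining ones gave 0.52, 0.18 and -0.14. The integrin Itgal was higher (4.66) and its ligand Icam2 lower (-3.57). For the receptor Csf1r, Csf1 lay at 3.38 and 0.51 against 5.10 and 2.78 and the second ligand Il34 at -4.53 and -4.30 against -4.42 and -5.16, neither called. RNA in a gate does not show that a ligand reached a receptor.

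**Figure D4:**
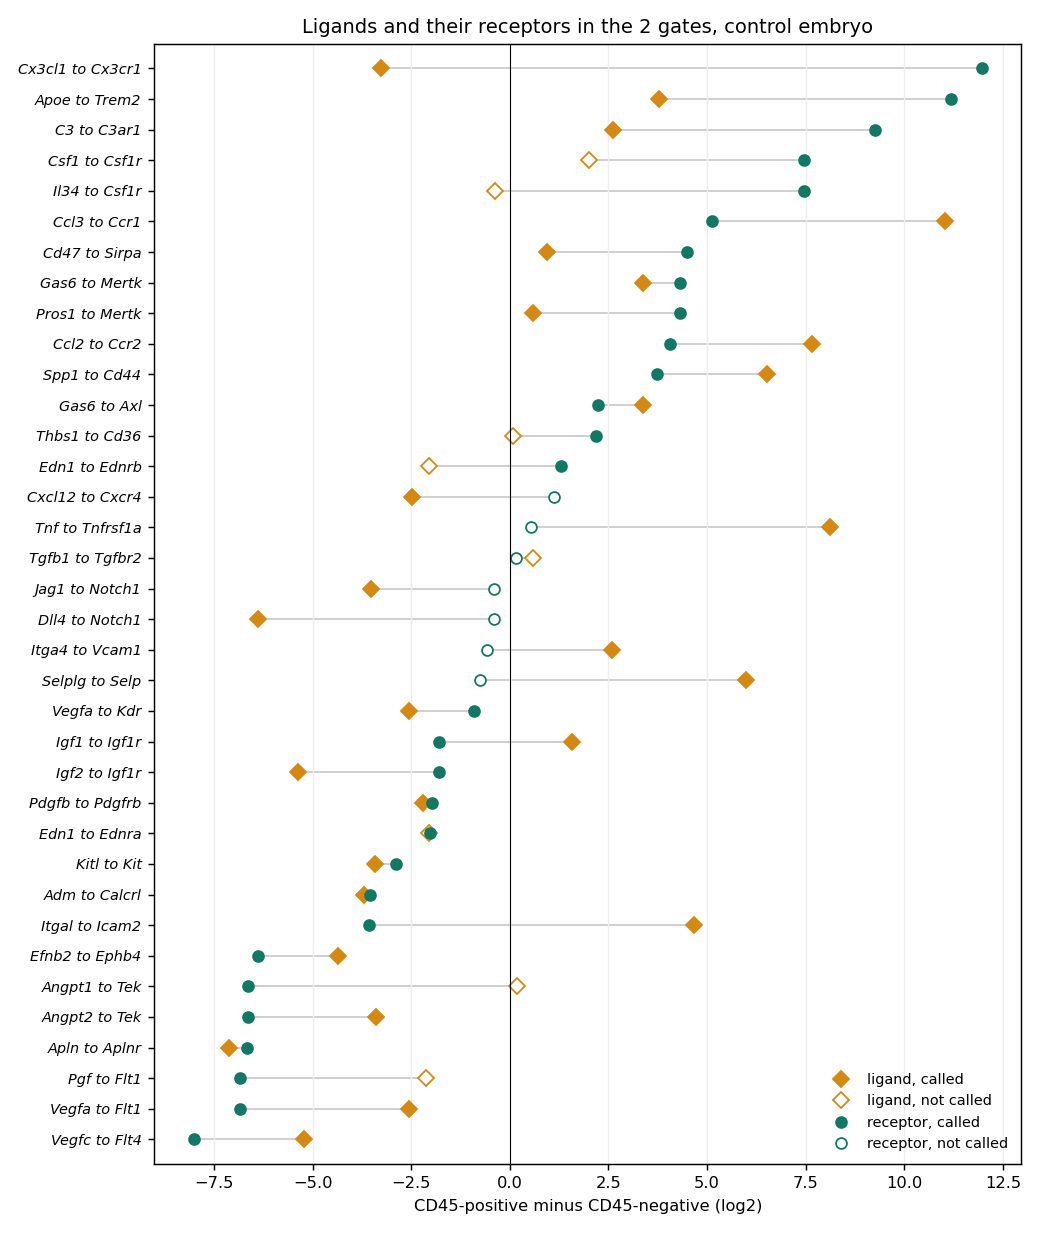
Difference between CD45-positive and CD45-negative control embryo cells (horizontal axis, log2) for the ligand (diamond) and the receptor (circle) of the 36 pairs with both genes tested (vertical axis, ordered by the receptor's difference); a grey line joins each pair, filled symbols are called and open symbols are not. Cx3cl1 lies at -3.26 and its receptor Cx3cr1 at 11.97.

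The control yolk sac, the membrane in which the first blood forms, was sorted with the same gates and shows where the embryo's gate difference departs from it. The difference of the differences was called for 243 genes as higher (0.989%) and for 79 as lower (0.321%) in the embryo, by limma over all 24578 genes. Each tissue lay on its own slide, so tissue and slide cannot be told apart. With the 8 arrays compared fitted alone, 65 were higher and 16 lower, and without single arrays the counts ran from 116 to 380 and from 40 to 186. Of the 243, 47 were not well above background on any control embryo array, and 46 of these were bright in yolk sac CD45-negative cells. The sodium phosphate transporter Slc34a2, the glutathione transferase Gsta1, Slc6a2 and Nxf3 are of this kind, and their embryo gate difference was taken between signals at background. Gsta1, for example, lay at 2.84 and 3.43 on the yolk sac CD45-negative arrays and at -5.62 and -6.01 on those of the embryo.

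Glipr1 showed the largest such difference among genes bright in the embryo. It lay at -3.84 and -4.86 in CD45-negative and 4.27 and 3.35 in CD45-positive embryo cells, and at 3.21 and 3.60 and 3.15 and 2.83 in the yolk sac, a difference of differences of 8.58 ± 0.64 (limma adjusted p = 3.93e-04). The embryo CD45-negative arrays were the low ones. Ifi204 lay at -2.41 and -3.39 against 7.30 and 6.60 in the embryo and at 0.80 and 0.89 against 7.45 and 7.18 in the yolk sac (3.38 ± 0.48). Slc11a1 (4.87), the peptide transporter Slc15a3 (4.23) and Slfn2 (4.33) were called too, Slc11a1 against embryo CD45-negative arrays at background. For all 4, both yolk sac CD45-negative arrays lay above both embryo CD45-negative arrays. Over the interferon list 3 genes were called so and 0 the other way, and the median gate difference of its members was 4.05 in embryo and 2.10 in yolk sac cells.

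Fabp3, a fatty acid carrier, was higher in CD45-positive cells of the embryo (0.64 and -0.66 against 3.24 and 2.09) and lower in those of the yolk sac (5.85 and 6.07 against 2.66 and 1.59). The difference of differences was also called higher for Edn2 (6.36), the neuronal Stmn2 (5.36), the atrial myosin chain Myl7 (5.97) and Dusp13 (6.67). All were bright in yolk sac CD45-negative cells relative to their own levels elsewhere. Unlike Fabp3, Edn2, Stmn2 and Myl7 lay lower on average in CD45-positive cells of both tissues. In the embryo Stmn2 lay at 2.21 and 2.39 against -1.25 and 0.51. Edn2 stood at background in embryo and Myl7 in yolk sac CD45-positive cells. The probe used for Dusp13 was at background on both embryo CD45-negative arrays and well above it on 1 embryo CD45-positive array. Another Dusp13 probe gave an embryo gate difference of 0.13.

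In the other direction, Prkcb, a protein kinase C, lay at 0.16 and 0.52 against 3.55 and 3.68 in the embryo and -4.41 and -3.83 against 3.64 and 3.47 in the yolk sac (-4.40 ± 0.39, limma adjusted p = 7.43e-04). The lymphatic factor Prox1 lay at 0.84 and -0.07 in embryo CD45-negative cells and at -3.23 and -3.59 in those of the yolk sac, with CD45-positive cells low in both (-3.91 ± 0.66). Slc7a14 (-5.76), the peptide gene Calca (-5.07) and Crisp3 (-4.91) were well above background in embryo CD45-negative cells alone among these 4 groups, so their values were taken against background signals, have no order and are not bounds. Gm1987 (-4.28) lay at 6.76 and 5.42 against -1.65 and -1.35 in the embryo and at -3.05 and -1.77 in yolk sac CD45-negative cells, and stood at background in yolk sac CD45-positive cells. With normexp background correction the calls of Crisp3 (-1.20, limma adjusted p = 0.166), Gjb6 (-0.78, limma adjusted p = 0.568), Chil3 (-3.11, limma adjusted p = 0.0731), Slc15a3 (2.37, limma adjusted p = 0.0925) and Slc11a1 (1.75, limma adjusted p = 0.0565) were lost. Chil3, a chitinase-like protein of myeloid cells, lay at -1.61 and -2.32 against -2.47 and -1.93 in the embryo. In the yolk sac Chil3 lay at -5.13 and -4.48 against 1.61 and 0.18 (-5.93 ± 1.18). Of its yolk sac CD45-negative arrays, 1 was well above background. Enpp2, the enzyme autotaxin (-4.34), and the connexin Gjb6 (-4.93, at background in embryo CD45-positive and yolk sac CD45-negative cells) were called as well. Of the genes named for this comparison, 9 of 23 lost their call when single arrays were left out: Slfn2 without yolk sac CD45-negative replicate 2 (4.27, limma adjusted p = 0.104, 5 arrays), Slc15a3 without yolk sac CD45-negative replicate 1 (4.12, limma adjusted p = 0.13, 7 arrays), Gsta1 without yolk sac CD45-negative replicate 2 (6.37, limma adjusted p = 0.107, 5 arrays), Myl7 without yolk sac CD45-negative replicate 2 (5.74, limma adjusted p = 0.111, 7 arrays), Prox1 without yolk sac CD45-negative replicate 2 (-3.73, limma adjusted p = 0.0837, 5 arrays), Calca without yolk sac CD45-negative replicate 2 (-4.88, limma adjusted p = 0.0741, 2 arrays), Gm1987 without yolk sac CD45-negative replicate 1 (-3.64, limma adjusted p = 0.154, 6 arrays), Chil3 without yolk sac CD45-negative replicate 1 (-5.61, limma adjusted p = 0.154, 7 arrays) and Gjb6 without yolk sac CD45-negative replicate 2 (-4.75, limma adjusted p = 0.171, 7 arrays).

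**Figure D5:**
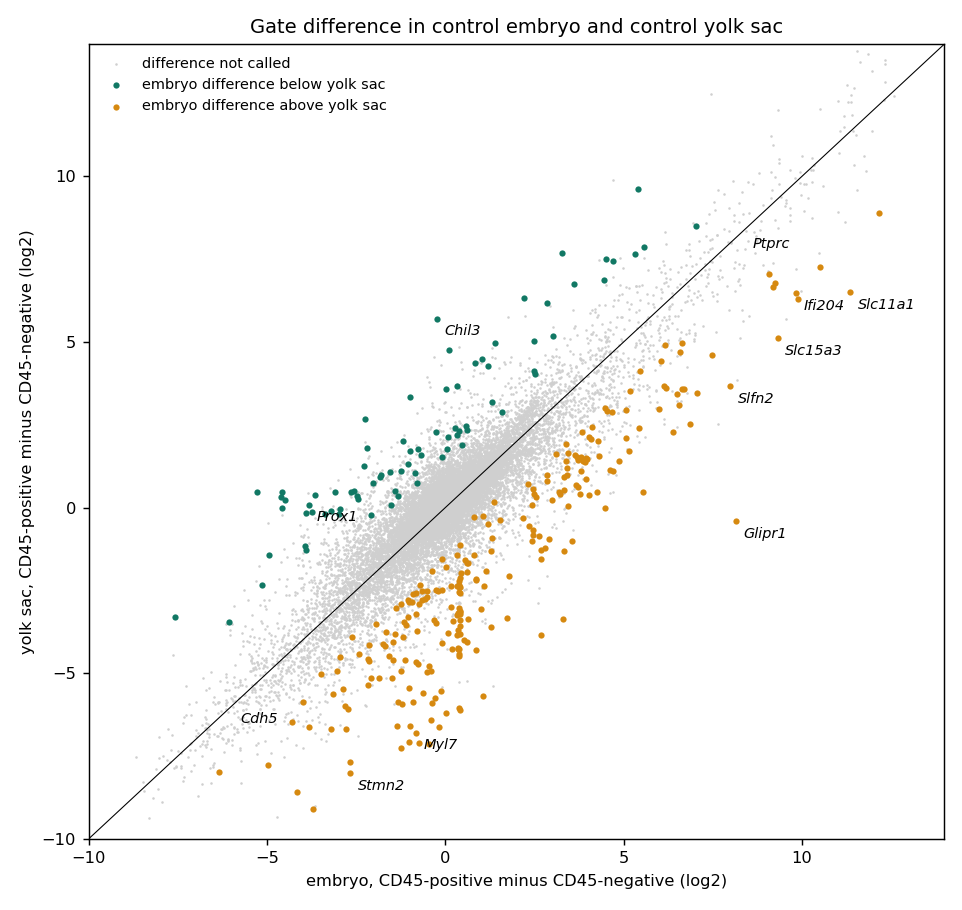
Gate difference in the control embryo (horizontal axis, log2) against the gate difference in the control yolk sac (vertical axis, log2) for all genes tested; coloured points are genes whose difference of differences was called. Glipr1 lies at 8.16 and -0.42. The vertical stripe near an embryo difference of zero includes genes at background on the embryo arrays, such as Nxf3 and Slc6a2.

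The embryos labelled Tie-2-Etv2 were sorted in the same way and on the same slide as the control embryos, and this comparison uses the same control arrays as that with the yolk sac. The control gate difference was called higher than the Tie-2-Etv2 one for 141 genes (0.574%) and lower for 140 (0.57%). With the embryo slide fitted alone the counts were 92 and 74. Of the 141 higher, 134 were called higher in CD45-positive control cells (background 20.0%). The control arrays enter both calls, so this count follows in part from how the genes were chosen. Rac2 lay at -3.32 and -3.38 against 5.90 and 5.73 in control and at 2.89 and 2.65 against 6.08 and 6.17 in Tie-2-Etv2 embryos (5.81 ± 0.38, limma adjusted p = 5.38e-05). The CD45-positive arrays were close, and the control CD45-negative arrays were the low ones. Lilrb4a (7.44), the adaptors Fyb (6.96) and Sla (6.82), the platelet and leukocyte gene Plek (5.98), Susd3 (5.66), Nckap1l (5.53), Vav1 (5.09) and F13a1 (5.12) had that form, Fyb and Susd3 with control CD45-negative arrays at background. Of the 24 Rac, Vav and actin genes 13 were called so. Pf4 lay at 3.00 and 2.39 in control and 7.98 and 7.36 in Tie-2-Etv2 CD45-negative cells (5.79 ± 0.46).

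Of the 140 genes with a lower control difference, 32 were not well above background on any control embryo array, and 31 of these were bright in Tie-2-Etv2 CD45-positive cells. Retnlg (-7.40) and the collagenase Mmp8 (-6.31), both of neutrophils, the stefin genes Csta3 (-6.50) and Cstdc6 (-6.41), the integrin-like Itgb2l (-6.49), Gm9733 (-6.07) and Ankrd22 (-5.95) were called so. None of these 7 was well above background in control CD45-negative cells, so their values were taken against background signals and have no order. Mmp8 lay at -3.53 and -6.49 in control and 0.96 and 2.27 in Tie-2-Etv2 CD45-positive cells. Stefin genes of this cluster are near-identical, and probes may not separate them. Among endothelial genes, Sox18 lay at -4.09 and -3.97 in control and 0.94 and 1.19 in Tie-2-Etv2 CD45-positive cells, with CD45-negative levels of 3.88 and 3.58 and 3.95 and 3.60 (-5.05 ± 0.92, limma adjusted p = 0.0266). Tek (-3.56) and Cdh5 (-2.36) were called the same way, so the gate difference of both was larger in control than in Tie-2-Etv2 embryos. The carboxylesterase Ces2b was at background in control CD45-positive cells alone (-5.48). Of the genes named for this comparison, 7 of 21 lost their call when single arrays were left out: Lilrb4a without Tie-2-Etv2 CD45-negative replicate 1 (7.19, limma adjusted p = 0.0948, 5 arrays), Csta3 without control CD45-negative replicate 1 (-6.12, limma adjusted p = 0.082, 3 arrays), Cstdc6 without control CD45-negative replicate 1 (-5.96, limma adjusted p = 0.0639, 3 arrays), Itgb2l without control CD45-negative replicate 1 (-6.11, limma adjusted p = 0.156, 7 arrays), Mmp8 without Tie-2-Etv2 CD45-negative replicate 2 (-5.94, limma adjusted p = 0.117, 5 arrays), Sox18 without Tie-2-Etv2 CD45-negative replicate 2 (-4.88, limma adjusted p = 0.115, 8 arrays) and Cdh5 without Tie-2-Etv2 CD45-positive replicate 2 (-2.20, limma adjusted p = 0.11, 5 arrays).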

How the data were processed

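The arrays, 1 per sample, were single-colour Agilent mouse 60-mer arrays. Per the labels' protocols, cells were sorted, RNA came from a microelute kit, and a low-input kit added the Cy3 dye. The deposited scanner files hold spot intensities from Agilent Feature Extraction 10.7, per the submitters' processing notes and the file headers: intensities were background-subtracted and detrended per array, spots at background got surrogate values, and nothing was normalized between arrays. The series value table was not used here.

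Spots of a probe were averaged without control and outlier spots. The level is the log2 intensity relative to each array's 75th percentile. A probe was kept where both arrays of any of the 8 groups were well above background (34126 probes), and the brightest probe stood for a gene (24578 genes, 16532 with a symbol from RefSeq names of GRCm38.p6). Of 55594 probes used, 25948 had no symbol.

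With limma 3.58.1 in R 4.3.3, group means were fitted to all 16 arrays together (lmFit and eBayes, 8 residual and 2.29 prior degrees of freedom), two-sided, with Benjamini-Hochberg adjustment over all genes and a threshold of 0.05. All adjusted p-values come from it. The procedure was tested on simulated data. Python 3.11.15 prepared tables and figures. The number of arrays limits the precision. Members, gene lists, pairs and motifs were chosen with earlier results of these data known. Named genes are those marked in a list, the 12 largest differences and bounds each way, the largest, contrary and some uncalled members of each list, the 8 largest differences of differences each way, and the genes of the pairs; some genes this rule names are not reported here. Alternatives were scalings, detection filters, moderation, sample sets, a replicate block, probe averaging and leaving out each array.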

Additional observations from a re-analysis of the deposited data

Results flagged for a closer look

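Gate differences that differed between groups, by a contrast of the same limma fit with Benjamini-Hochberg adjustment, drew attention. Between control embryo and control yolk sac the gate difference was called higher for 243 genes and lower for 79, and between control and Tie-2-Etv2 embryos higher for 141 and lower for 140.

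On the log2 scale, the embryo gate difference exceeded that of the yolk sac for Glipr1 8.58, Slc34a2 6.75, Dusp13 6.67, Gsta1 6.66, Fabp3 6.51, Slc6a2 6.43, Nxf3 6.42, Edn2 6.36, Ifi204 3.38, Slfn2 4.33, Slc15a3 4.23, Slc11a1 4.87, Myl7 5.97, Stmn2 5.36. It was below that of the yolk sac for Chil3 -5.93, Slc7a14 -5.76, Calca -5.07, Gjb6 -4.93, Crisp3 -4.91, Prkcb -4.40, Enpp2 -4.34, Gm1987 -4.28, Prox1 -3.91. Among the genes named here, those at background in 1 or more of the groups compared have values taken against background signals, as given with the results. Of the 243 genes called higher, 77 had gate differences of opposite sign in the tissues, and 153 were called lower in yolk sac CD45-positive cells. The same arrays served to choose the genes, so both counts follow in part from that choice.

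The control gate difference exceeded that of Tie-2-Etv2 embryos for Lilrb4a 7.44, Fyb 6.96, Sla 6.82, Plek 5.98, Rac2 5.81, Pf4 5.79, Susd3 5.66, Nckap1l 5.53, Vav1 5.09, F13a1 5.12. It was below that of Tie-2-Etv2 embryos for Retnlg -7.40, Csta3 -6.50, Itgb2l -6.49, Cstdc6 -6.41, Mmp8 -6.31, Gm9733 -6.07, Ankrd22 -5.95, Ces2b -5.48, Sox18 -5.05, Tek -3.56, Cdh5 -2.36. Of the 140 genes called lower, 76 were called lower and 21 higher in CD45-positive control cells (background 16.6% and 20.0%). Here too the control arrays enter both calls, so the counts follow in part from how the genes were chosen.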

How the results depend on the processing

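The counts of the gate comparison stayed within 1.5 times of those reported under quantile scaling, detected-probe scaling, normexp background correction, other detection filters, a trended robust prior, the embryo slide alone, the replicate block, averaging over probes and leaving out each array. They left that range with the 4 arrays compared fitted alone (2619 higher and 2646 lower). Leaving out single arrays gave 3839 to 4694 higher and 3366 to 3864 lower genes. For the yolk sac comparison (243 and 79), detection on every array gave 133 and 31, the 8 arrays compared gave 65 and 16, and leaving out single arrays gave 116 to 380 and 40 to 186. For the Tie-2-Etv2 comparison (141 and 140), detection on every array gave 88 and 80, the embryo slide alone, which holds just the arrays compared, gave 92 and 74, and leaving out single arrays gave 99 to 221 and 67 to 172. Fitting only the arrays compared leaves fewer samples for the spread, and a strict filter tests fewer genes. The cause of the other changes was not tested. With a lone array in a gate, its spread is assumed to be that of the other groups. The size of list medians depended on the setting as well. With normexp the median went from -3.85 to -1.74 for endocardial and from 4.07 to 1.15 for chemokine receptor genes. That of macrophage identity genes went from 7.82 to 5.78 and that of lysosomal genes from 2.05 to 1.96. With detection on every array, the median went from -2.54 to -0.99 for endothelial transcription factors and from -4.51 to -4.97 for junction genes.

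Of 323 named genes called in the gate comparison, 278 kept call and direction under every alternative that gave a value, and 30 lost the call when an array was left out. Averaging over probes in place of taking the brightest reversed Mcam from 1.79 to -2.28, Itgam from -1.46 to 1.21, Itgb3 from -0.24 (not called) to 0.73 and Siglech from -0.09 (not called) to 4.00, as these probes oppose each other. Of 81 named genes not called, 32 were called under some alternative. In the other comparisons 8 of 23 and 14 of 21 named genes kept their call throughout. The labels do not say that a replicate number marks a shared litter or day. Deviations of same-numbered control embryo arrays correlated at 0.39 between gates, and elsewhere between -0.05 and 0.37. With the replicate block, 5557 genes were higher and 4454 lower between gates, 270 and 101 in the yolk sac comparison, and 165 and 153 in the Tie-2-Etv2 comparison. Of the 28 signals that endothelium makes, the block called 27 lower and 1 higher, against 24 and 0 without it. Edn1, Pdgfa, Pgf and Bmp2 were thus called with the block. The scalings set the median gate difference of all genes at 0.08, -0.04 (quantile), -0.12 (detected probes) and 0.09 (normexp), and the share of calls that were higher went from 54.6% to 44.1% with detected probes. Signal near background limits dim genes: 642 genes tested were not well above background on any control embryo array.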

Other observations

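Probes of the same gene did not always give the same gate difference. Of 6484 genes with several probes, 25.1% had probes of opposite sign. Among named genes, Kdr, Epas1, Mcam, Itgam, Siglech, Cd300lf, Tlr7, Notch1 and Igf1 are examples with probes of widely different values. Values of the brightest and of other probes are given with the results. For Epas1, Siglech and Cd300lf the brightest probe was nearly level between gates, and for Mcam and Itgam it was opposed to the other probe. For Kdr, Tlr7 and Notch1 the brightest probe gave a smaller difference of the same sign. For Igf1 the brightest probe gave a larger difference than most of its other probes.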
